A study of Homo sapiens with 6 samples.

Results

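The imprinted growth genes considered here were *H19*, *IGF2*, *MEG3*, *DLK1*, *PEG3*, *PEG10*, *SGCE*, *NDN*, *PLAGL1* and *GRB10*, 10 of the 58051 genes counted. They were chosen by name, as coding and noncoding genes with parent-of-origin expression and known ties to growth, and the rule that chose them used no measured value, although earlier results of these data were known. RNA came from A172, an established human glioblastoma cell line, carrying a stable lentiviral expression plasmid for either GFP, the control, or RBFOX1, an RNA-binding protein of neurons and muscle that regulates splicing and mRNA stability. Each condition had 3 libraries of rRNA-depleted, stranded total RNA, which the study's methods call biological replicates. Both lines went through the same transduction with virus made in HEK293T cells, so both carry an integrated vector, and the labels do not say whether a line is a pool or a clone. The comparison asks how steady-state RNA differs when a glioblastoma line overexpresses RBFOX1 from a vector.

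Imprinted genes are transcribed mainly from the copy inherited from one parent, under differentially methylated control regions that also govern neighbouring genes, often a coding gene and a noncoding RNA in opposite directions of inheritance. Paternally expressed members such as *IGF2* and *DLK1* tend to promote growth and maternally expressed ones such as *H19* tend to restrain it, and many act in the embryo and placenta. Gene-level counts do not tell the parental copies apart, so imprinting itself was not measured.

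RBFOX1 and its paralogs bind RNA at the hexamer TGCATG, written here in DNA letters, so its copies in the members' canonical transcripts are shown first, in capitals, with 10 bases on each side, read 5′ to 3′ on the minus strand, the coding strand of these genes, in GENCODE 44 on GRCh38. Of the 5 members with enough counts to be tested, *SGCE*, *PLAGL1* and *GRB10* held a copy. The sites lie at chr7:94585413-94585418 and chr7:94585387-94585392 in the 3′ UTR of *SGCE*, 81 and 107 nt past the stop codon, at chr6:143948351-143948356 in the 5′ UTR and chr6:143941266-143941271 in the 3′ UTR of *PLAGL1*, and at chr7:50616299-50616304 in the coding sequence of *GRB10*.
SGCE, first site: cttccaataaTGCATGagcttttctg
SGCE, second site: gcatatgttaTGCATGttggcagtat
PLAGL1, 5′ UTR site: agcttgagacTGCATGtaaactggga
PLAGL1, 3′ UTR site: attctcgaacTGCATGtattgtgcca
GRB10, coding site: caagggttttTGCATGtgaaagagct

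The exact hexamer was searched in exons on the transcript strand only, and a match is a description, not a bound site. Introns and shorter or variant forms of the hexamer were not searched, so 0 copies does not mean that a gene has no RBFOX site. A 3′ UTR copy was present in 36.4% of the 14094 tested protein-coding genes, and the 3′ UTR of *SGCE* holds 2 within 519 nt. Of the 1375 tested genes with a 3′ UTR of 416 to 648 nt, 14.3% held at least 1 and 1.53% at least 2. The canonical transcripts of *DLK1*, *NDN* and *PEG3* each held 1 copy in the 3′ UTR, and those of *IGF2*, *H19*, *PEG10* and *MEG3* held none. The canonical transcript of *PEG10* has a 3′ UTR of only 16 nt, and that of *MEG3* covers 0.632 kb of 23.2 kb of exon, so little sequence was searched there. Among tested genes with a 3′ UTR of similar length, 68.4% held a copy for *IGF2*, 58.8% for *GRB10* and 28.9% for *PLAGL1*. Over all annotated transcripts the distinct copies came to 11 for *SGCE*, 11 for *MEG3*, 4 for *GRB10*, 4 for *PLAGL1* and 2 for *PEG10*, with 0 for *IGF2* and *H19*.

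The libraries held 7433414 to 23249221 counts on genes, and 3 counts were worth 1.82 to 5.44 normalized counts, that is, counts scaled to a mean library of 13877712 counts by the trimmed mean of M-values. *RBFOX1* had 4, 0 and 1 counts in the GFP libraries and 10276, 16467 and 21451 in the RBFOX1 libraries. *RBFOX2* averaged 2549 ± 61.8 normalized counts in GFP libraries and 2151 ± 69.0 in RBFOX1 libraries (n = 3 per condition, SD here and for all later means), with a log2 fold change of -0.24 (SE 0.0490, edgeR adjusted p = 0.000347), and *RBFOX3* had at most 3 counts in any library. The glioma markers *VIM*, *CD44*, *NES*, *SOX9* and *OLIG2* were counted in every library, while *GFAP* had 1 to 4 counts, *S100B* 0 to 2 and *AQP4* 0, so the astrocytic markers of the labelled cell type were at or near 0. Summed over the 10-gene glioma list, normalized counts were 77518 to 78668 in GFP and 51710 to 52496 in RBFOX1 libraries, mostly *VIM* and *CD44*. The list did not move as one, with 3 genes higher and 4 lower of 8 tested. *SOX2* rose from 23.5 ± 4.61 to 132 ± 9.65 normalized counts and *CHI3L1* from 6.94 ± 2.42 to 738 ± 36.8, both named after their values had been seen. The sums for 4 lists of other cell types were higher in RBFOX1 libraries. They went from 3830 to 4167 up to 17168 to 19124 for 5 HEK293T genes, nearly all *NEFL* with *LIN28B* and *NEFM* at 0 or 1 count. *PAX2* and *PAX8* of that list had negative log2 fold changes (-0.34 each) and were not called (edgeR adjusted p = 0.541 and 0.293). The sums went from 12.8 to 25.5 up to 52.6 to 68.5 for the leukocyte genes *PTPRC*, *CD3E* and *CD68*, mostly *PTPRC*. *CD3E* was at 0 and *CD68* was not called (log2 fold change -0.12, edgeR adjusted p = 0.927). For 3 endothelial genes the sums went from 10.3 to 12.8 up to 95.9 to 109, and for 3 epithelial genes from 6242 to 6516 up to 24562 to 25532, nearly all *KRT18*. These sums moved with the groups in every comparison that follows, and their part in the results was not tested.

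Of the 10 members, *IGF2* alone passed the test, and it was 2.14-fold lower in RBFOX1 cells. *GRB10*, *SGCE* and *PEG10* were expressed and did not pass, *PLAGL1* was low and variable, and *H19*, *MEG3*, *DLK1*, *PEG3* and *NDN* were at or close to 0 in both conditions. Of 20536 genes with at least 10 counts over the libraries, 9581 passed an adjusted p of 0.05 (edgeR quasi-likelihood test), or 46.7%, with 23.7% higher and 22.9% lower in RBFOX1 cells. Of the 5 members that could be tested, 1 passed and was lower, 0 passed as higher (0 also at an unadjusted p under 0.05), and the median log2 fold change was -0.17 against 0.0051 over all tested genes. Low counts limit calls: among the 12012 genes averaging at least 50 normalized counts, 63.8% passed, and of the 3 members at that level (*GRB10*, *SGCE* and *PEG10*) 0 passed. In bulk RNA, fewer cells that express a gene and less of its RNA per cell cannot be told apart.

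**Figure D1:**
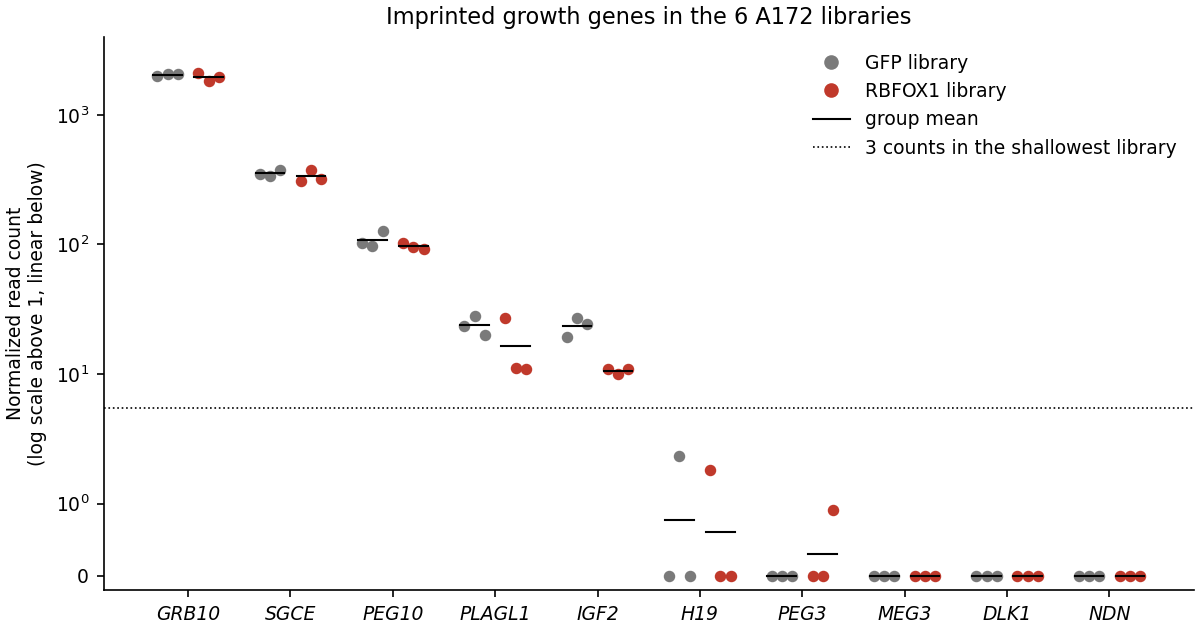
Normalized read count (log scale above 1, linear below) of each of the 10 members in the 3 GFP and 3 RBFOX1 libraries, with 1 point per library. *GRB10* lies between 1817 and 2086, *SGCE*, *PEG10*, *PLAGL1* and *IGF2* lie below it, and the other 5 members sit at or near 0.

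*IGF2* (ENSG00000167244, chr11:2129112-2158391, minus strand) encodes insulin-like growth factor 2, a fetal growth factor that signals through the IGF1 and insulin receptors. It had 32, 23 and 23 counts in the GFP libraries and 6, 9 and 12 in the RBFOX1 libraries. Scaled for depth these were 19.4, 26.9 and 24.2 against 10.9, 9.99 and 11 normalized counts. The 3 RBFOX1 libraries all lay below the 3 GFP libraries, as groups did without overlap, in either direction, for 53.4% of all tested genes. The mean fell from 23.5 ± 3.77 to 10.6 ± 0.537, with n = 3 in each condition, a log2 fold change of -1.10 (SE 0.293, 95% interval -1.71 to -0.48, edgeR adjusted p = 0.00418). With 78 counts over the GFP libraries and 27 over the RBFOX1 libraries, the ratio of counts per effective library was 0.469, with an exact 95% interval of 0.291 to 0.735 that covers counting error only. DESeq2 gave a similar log2 fold change of -1.13 but an adjusted p of 0.0541, so the call does not hold with that tool. The alternatives together ranged from -1.25 to -1.01, with adjusted p from 0.00213 to 0.0541.

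Part of *IGF2* cannot be counted with the mode the authors used. In GENCODE 44, 1833 of its exon bases (25.7%) also belong to the readthrough gene *INS-IGF2* or to ENSG00000240801, and read pairs lying only there are assigned to no gene. Both overlapping genes had 0 counts in all 6 libraries. ENSG00000240801 has 0 kb of exon of its own and *INS-IGF2* 0.12 kb, so these counts are no measure of their levels. The share of read pairs that matched more than one gene was 8.89 to 9.35% in GFP and 6.89 to 7.94% in RBFOX1 libraries, and its part in the *IGF2* difference was not tested. *INS*, the insulin gene next to *IGF2*, had 0 counts, and the antisense RNA *IGF2-AS* had 3, 2 and 1 counts in GFP and 0, 0 and 1 in RBFOX1 libraries.

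The other growth ligand among the members, *DLK1* (ENSG00000185559, chr14:100725705-100738224, plus strand), a transmembrane protein related to Notch ligands that keeps precursor cells undifferentiated, had 0 counts in all 6 libraries. The maternally expressed noncoding RNA of the same domain, *MEG3* (ENSG00000214548, chr14:100779410-100861031, plus strand), also had 0 counts throughout. A count of 0 in all 83573588 counts allows a level of up to 0.0359 CPM (counts per 1000000 counts on genes; 3 counts of the total), or 0.0615 CPM over the GFP libraries and 0.0863 CPM over the RBFOX1 libraries. *MIR770* and *MIR493HG*, which share exon bases with *MEG3* on its strand, were at 0 as well. Elsewhere in the domain, *MEG9* and *DIO3* were at 0 and *MEG8* had 1, 0 and 0 counts in both conditions. *RTL1*, a retrotransposon-derived gene of placenta and muscle, had 0, 0 and 0 counts in GFP and 2, 2 and 1 in RBFOX1 libraries, too few to be tested.

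*H19* (ENSG00000130600, chr11:1995166-2004552, minus strand), the noncoding RNA that shares a control region and enhancers with *IGF2*, had 0, 2 and 0 counts in GFP and 1, 0 and 0 in RBFOX1 libraries. *IGF2* was thus detected in every library and *H19* in only 1 library of each condition. *H19* was too low for a test or a ratio to *IGF2*.

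*GRB10* (ENSG00000106070, chr7:50590063-50793462, minus strand), an adaptor that binds the insulin and IGF1 receptors and dampens their signalling, was by far the most abundant member. Its normalized counts were 2003, 2063 and 2050 in GFP and 2086, 1817 and 1948 in RBFOX1 libraries. The RBFOX1 libraries spread around the GFP range on both sides. The means were 2039 ± 31.5 and 1950 ± 134, a log2 fold change of -0.067 (SE 0.0542, 95% interval -0.18 to 0.046, edgeR adjusted p = 0.342). *DDC*, an imprinted neighbour of *GRB10* that encodes DOPA decarboxylase, had 0 counts.

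*PEG10* and *SGCE* start 0.247 kb apart on opposite strands and share a promoter region on chromosome 7. *SGCE* (ENSG00000127990, chr7:94524204-94656572, minus strand) encodes epsilon-sarcoglycan, a membrane protein whose loss causes myoclonus dystonia, and *PEG10* (ENSG00000242265, chr7:94656325-94669695, plus strand) a retrotransposon-derived Gag-Pol-like protein needed in placenta. *SGCE* had 350, 336 and 373 normalized counts in GFP and 310, 374 and 319 in RBFOX1 libraries. *PEG10* had 102, 98.1 and 126 in GFP and 103, 95.5 and 92.2 in RBFOX1 libraries. In both genes the ranges of the conditions overlapped. The log2 fold change was -0.073 for *SGCE* (SE 0.0851, 95% interval -0.25 to 0.11, edgeR adjusted p = 0.528) and -0.17 for *PEG10* (SE 0.132, 95% interval -0.45 to 0.10, edgeR adjusted p = 0.317). These intervals leave room for a change of *PEG10* or *SGCE* by up to those bounds.

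The balance of the pair was also compared within libraries, as the log2 ratio of *PEG10* to *SGCE* normalized counts with 0.5 added to each. It was -1.78, -1.77 and -1.56 in GFP and -1.58, -1.96 and -1.78 in RBFOX1 libraries. The group means, -1.70 ± 0.125 and -1.78 ± 0.192, differed by -0.075, which was within the spread of either group (two-sided exact permutation p = 0.5, where 3 libraries against 3 cannot go below 0.1).

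*PLAGL1* (ENSG00000118495, chr6:143940300-144064599, minus strand), a zinc finger transcription factor that can arrest the cell cycle, had 39, 24 and 19 counts in GFP and 15, 10 and 12 in RBFOX1 libraries. The normalized counts were 23.7, 28.0 and 20.02 in GFP and 27.2, 11.1 and 11 in RBFOX1 libraries. RBFOX1 replicate 1, the shallowest library, lay inside the GFP range and the other two RBFOX1 libraries lay well below it. The log2 fold change was -0.69 (SE 0.317, 95% interval -1.35 to -0.027, edgeR adjusted p = 0.0834) and did not pass. Without RBFOX1 replicate 1 it was -1.09 and passed (adjusted p = 0.00976), so that library decides the call, and over the alternatives it ranged from -1.09 to -0.44 (adjusted p from 0.00976 to 0.364). The noncoding RNA *HYMAI*, which shares 289 exon bases with *PLAGL1*, had 0, 0 and 0 counts in GFP and 1, 1 and 0 in RBFOX1 libraries.

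**Figure D2:**
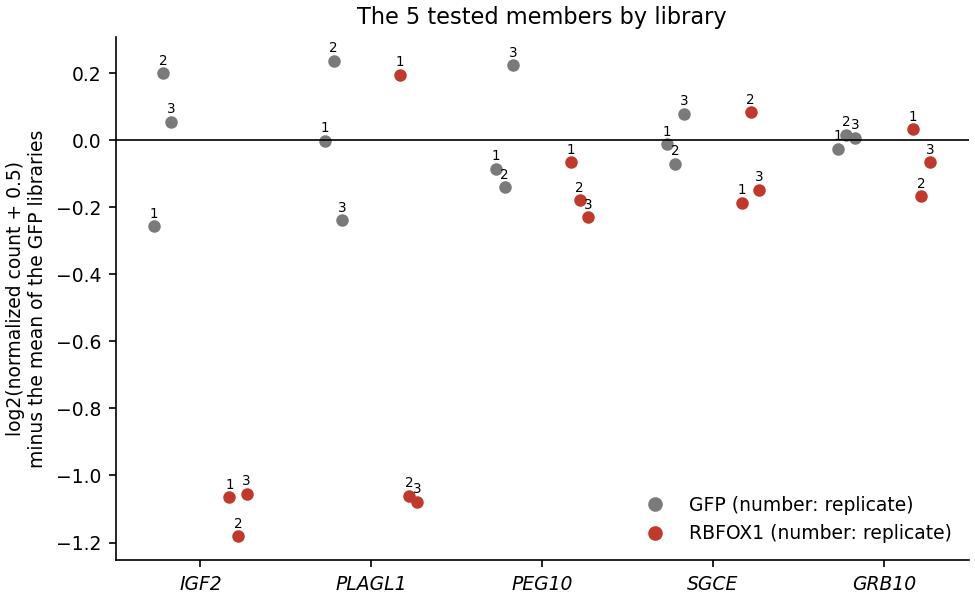
For the 5 tested members, log2(normalized count + 0.5) of each library minus the mean of the 3 GFP libraries; points are libraries, numbered by replicate. The RBFOX1 points of *IGF2* lie together between -1.18 and -1.05, those of *PLAGL1* split into replicate 1 at 0.20 and the others near -1.06, and those of *GRB10*, *SGCE* and *PEG10* mix with the GFP points.

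*PEG3* (ENSG00000198300, chr19:56810077-56840728, minus strand), a zinc finger protein linked to growth and maternal behaviour in mice, had 1 count in RBFOX1 replicate 3 and 0 in the other libraries. It shares 1264 exon bases with *ZIM2*, which had 0 counts, as did the neighbouring noncoding RNA *MIMT1*. *NDN* (ENSG00000182636, chr15:23685400-23687305, minus strand), which encodes necdin, a growth suppressor of postmitotic neurons lost in Prader-Willi syndrome, had 0 counts in all 6 libraries, and so did *MAGEL2* beside it.

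Compared between genes per kilobase of exon that no other gene shares, the mean levels were 204 normalized counts per kb for *GRB10*, 16.5 for *SGCE*, 15.4 for *PEG10*, 3.29 for *PLAGL1* and 3.21 for *IGF2*. The median of the 14094 tested protein-coding genes was 66.2 on this scale, so *GRB10* stood at the percentile 77.5 of these genes, *SGCE* and *PEG10* at 25.6 and 24.9, and *PLAGL1* and *IGF2* at 12.1 and 12. *SGCE* (14.9 to 17.9 over the libraries) and *PEG10* (13.8 to 18.9) overlapped, as did *PLAGL1* (1.79 to 4.58) and *IGF2* (1.88 to 5.06), so neighbours in this order did not differ beyond their spread except across the gaps between these pairs and below *GRB10*. The order was the same, but *SGCE* and *PEG10* no longer overlapped, when length was taken from the canonical transcript alone, at 184 and 39.8 normalized counts per kb. On that scale the median was 104, and *SGCE* stood above it at the percentile 63.7 and *PEG10* below it at 31.6.

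Domains that hold *IGF2*, *PEG10*, *SGCE* and *NDN* also hold other imprinted genes that passed the test. In the 11p15.5 domain of *IGF2* and *H19*, the noncoding RNA *KCNQ1OT1*, whose transcription silences its neighbours on the paternal copy, was higher in RBFOX1 cells, at 297, 352 and 298 normalized counts in GFP and 771, 545 and 556 in RBFOX1 libraries (log2 fold change 0.97, SE 0.108, edgeR adjusted p = 2.91e-07). *CDKN1C*, a maternally expressed inhibitor of cyclin-dependent kinases, rose from 176 ± 19 to 342 ± 34.0 normalized counts (log2 fold change 0.95, SE 0.0983, adjusted p = 9.51e-08). *PHLDA2*, a growth-restraining gene of placenta, fell from 689 ± 70.9 to 350 ± 38.5 (log2 fold change -0.99, SE 0.0892, adjusted p = 1.38e-08), and the transporter gene *SLC22A18* from 494 ± 31.9 to 303 ± 25.6 (log2 fold change -0.72, SE 0.0815, adjusted p = 3.50e-07). In these 4 genes the groups did not overlap, as was the case, in either direction, for 53.4% of all tested genes. *KCNQ1* itself, the potassium channel gene, did not pass (log2 fold change -0.094, adjusted p = 0.840).

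**Figure D3:**
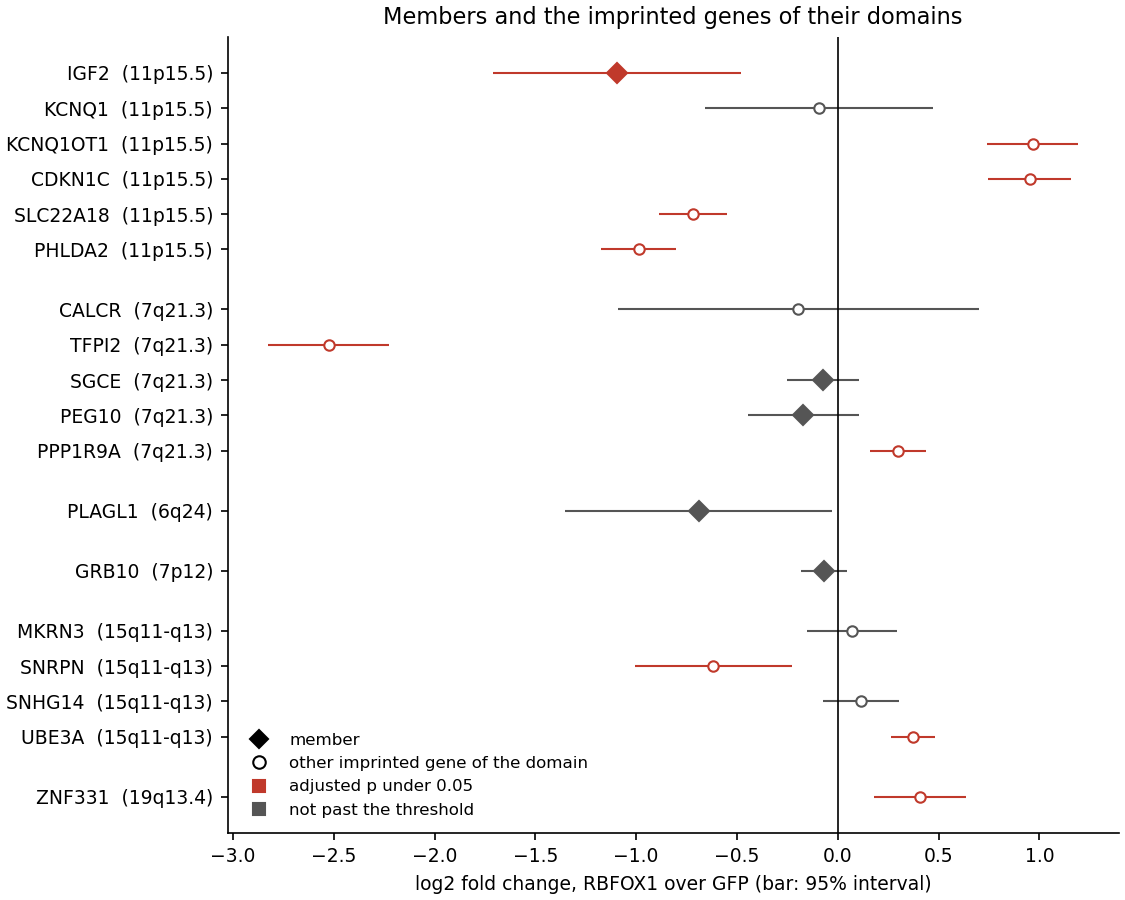
Log2 fold change of RBFOX1 over GFP with its 95% interval for the tested members and the tested imprinted genes of their domains, grouped by domain. The interval of *IGF2* runs from -1.71 to -0.48, those of *GRB10*, *SGCE* and *PEG10* cross 0, and domain partners lie on both sides.

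Around *PEG10* and *SGCE*, *TFPI2*, a serine protease inhibitor of the extracellular matrix, was 5.75-fold lower in RBFOX1 cells. It had 247, 206 and 226 normalized counts in GFP and 32.6, 48.8 and 35.6 in RBFOX1 libraries (log2 fold change -2.52, SE 0.144, edgeR adjusted p = 1.29e-11). *PPP1R9A*, which encodes the neuronal actin-binding protein neurabin, rose from 787 ± 27.0 to 965 ± 83.0 (log2 fold change 0.30, SE 0.0659, adjusted p = 0.000784), and the calcitonin receptor gene *CALCR*, at about 8 normalized counts, did not pass (log2 fold change -0.20, adjusted p = 0.751). Within 1 Mb of *PEG10*, 11 other genes had a mean of at least 10 normalized counts. Of these, 10 passed, 3 higher and 7 lower, and the exception was *SGCE*. Over all 15223 genes at that level the share was 57.9%. Within 1 Mb of *IGF2*, 13 of 24 such genes passed, 7 higher and 6 lower, a share near that background.

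**Figure D4:**
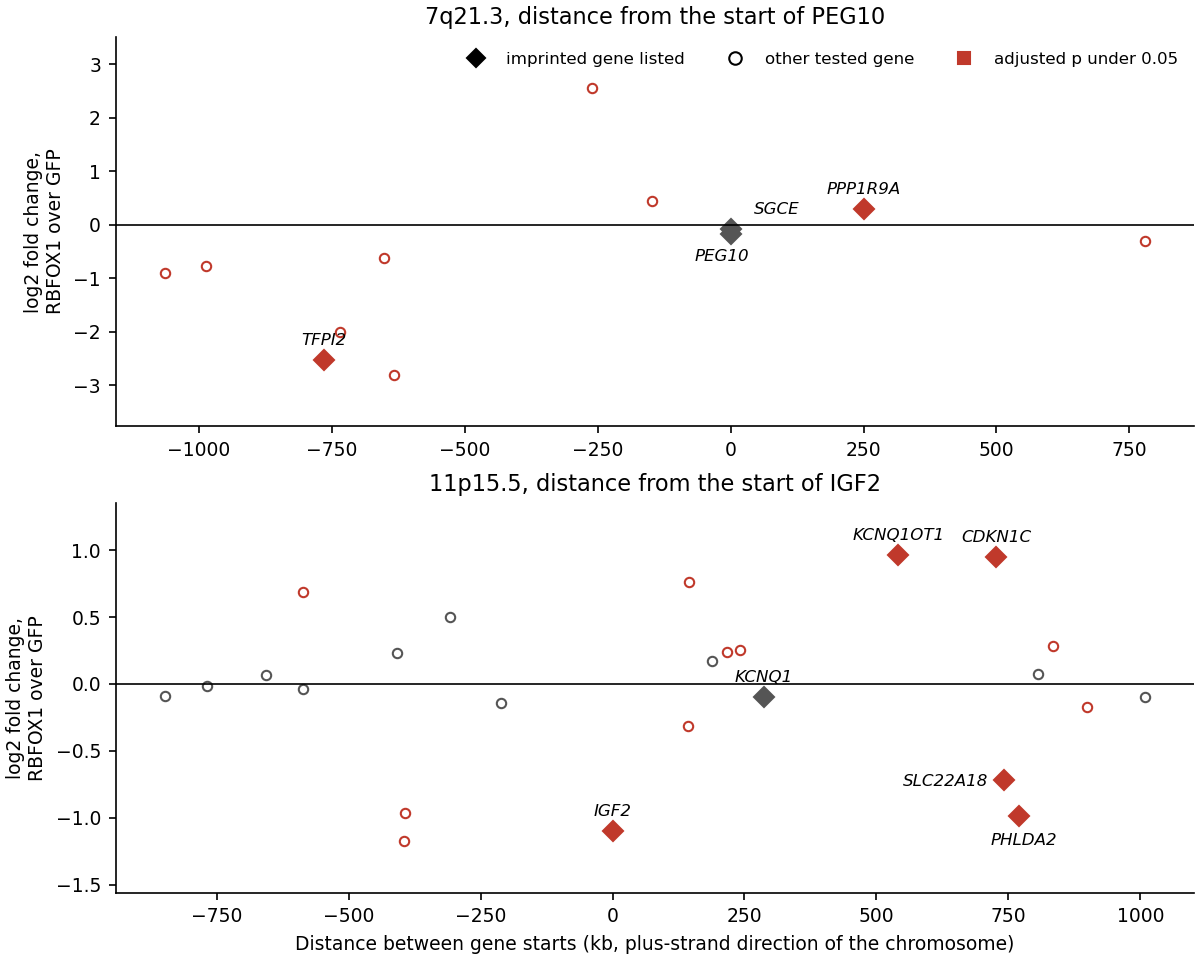
Log2 fold change of RBFOX1 over GFP for tested genes with a mean of at least 10 normalized counts within 1 Mb of *PEG10* (top) and *IGF2* (bottom), against the distance between gene starts in kb; diamonds are listed imprinted genes, circles other genes, red an adjusted p under 0.05. *PEG10* (-0.17) and *SGCE* (-0.073) are the grey diamonds of the upper panel, where every other plotted gene is red.

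In the 15q domain of *NDN*, *UBE3A*, the ubiquitin ligase gene of Angelman syndrome, rose from 1423 ± 57.7 to 1846 ± 22.1 normalized counts (log2 fold change 0.37, SE 0.0514, edgeR adjusted p = 4.39e-06). *SNRPN*, a paternally expressed splicing factor gene, fell from 54.2 ± 6.25 to 35.2 ± 4.43 (log2 fold change -0.62, SE 0.186, adjusted p = 0.00969), but did not pass with DESeq2 (adjusted p = 0.0885) or without RBFOX1 replicate 2 (adjusted p = 0.0552). *MKRN3* (log2 fold change 0.069, adjusted p = 0.644) and the noncoding *SNHG14* (0.11, adjusted p = 0.330) did not pass, *SNURF* had 0 to 2 counts, and *ATP10A* had 1 count in a single library. On chromosome 19, *ZNF331* (chr19:53519527-53580269), listed with *PEG3* but more than 1 Mb away from it, rose from 174 ± 25.9 to 234 ± 22.3 (log2 fold change 0.41, SE 0.109, adjusted p = 0.00422).

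Of 50 other imprinted genes listed, 33 had enough counts, and 14 of these were higher, 9 lower and 10 not called, that is 69.7% against the 46.7% of all tested genes. Among those averaging 50 or more normalized counts it was 19 of 25, against 63.8%. The median log2 fold change was 0.17 and 8 of the 50 had no count. The list was written by hand, and several of its genes are imprinted only in some tissues or some people. The genes at that level that passed with a log2 fold change of 1 or more in size, beside *TFPI2*, were *CPA4*, *DIRAS3* and *COPG2*. *CPA4*, a carboxypeptidase gene on chromosome 7, had 423, 381 and 400 normalized counts in GFP and 8998, 8661 and 8279 in RBFOX1 libraries (log2 fold change 4.42, SE 0.0603, edgeR adjusted p = 7.82e-21), a 21.4-fold difference. *DIRAS3*, a Ras-related growth suppressor expressed from the paternal copy, rose from 441 ± 7.24 to 1468 ± 169 (3.34-fold, adjusted p = 1.55e-13). *COPG2*, a coat protein gene beside *MEST*, rose from 164 ± 9.70 to 399 ± 37.4 (log2 fold change 1.29, SE 0.0938, adjusted p = 5.75e-10).

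**Figure D5:**
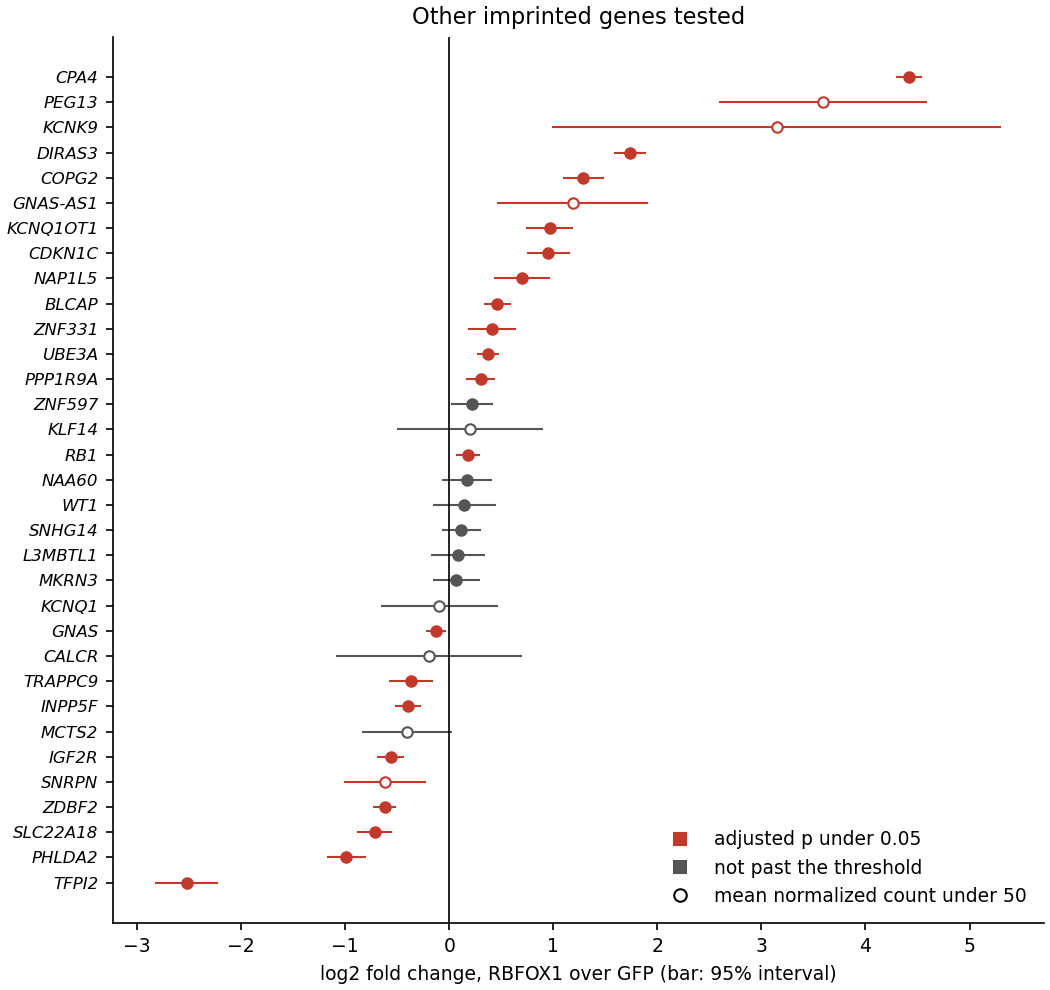
Log2 fold change of RBFOX1 over GFP with its 95% interval for the 33 other imprinted genes that were tested. *CPA4* lies at 4.42 and *TFPI2* at -2.52, with genes called in both directions between them.

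*IGF2* and insulin signalling partners were listed as *IGF1*, receptors, docking proteins and mRNA-binding proteins. *IGF2R* is also counted among the other imprinted genes. The listed partners were mostly expressed, and 8 of 9 could be tested: 2 were higher, 2 lower and 4 not called, with a median log2 fold change of 0.12. All 8 averaged at least 50 normalized counts, a level at which 63.8% of all genes passed. With only 8 genes, 4 calls are not read as a departure from that share. *IGF2R*, the receptor that clears the ligand and is itself imprinted in mice, fell from 7308 ± 555 to 4957 ± 402 normalized counts (log2 fold change -0.56, SE 0.0615, edgeR adjusted p = 2.13e-07). *IGF2BP3*, an mRNA-binding protein of *IGF2* transcripts, fell from 2995 ± 62.8 to 1302 ± 79.8 (log2 fold change -1.20, SE 0.0535, adjusted p = 3.16e-13), while its relative *IGF2BP1* rose from 682 ± 34.8 to 928 ± 83.7 (log2 fold change 0.44, adjusted p = 2.48e-05). The docking protein gene *IRS2* rose from 92.2 ± 5.25 to 201 ± 10.7 (log2 fold change 1.13, SE 0.108, adjusted p = 3.24e-08). *IGF2BP2* (0.13, adjusted p = 0.115), *IRS1* (0.24, adjusted p = 0.14), *INSR* (0.11, adjusted p = 0.234) and *IGF1R* (-0.10, adjusted p = 0.471), given as log2 fold changes, did not pass, and *IGF1* had 1 count in a single library.

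Most tested genes of a list of imprint-related factors were higher in RBFOX1 cells. The list also holds *PLAG1*, which can activate *IGF2* promoters and is not a factor that keeps imprints. Of 10 listed, 7 could be tested, and 5 were higher and 1, *PLAG1*, lower. With *PLAG1* counted, 85.7% passed against 46.7% of all tested genes, with a median log2 fold change of 0.56. Among those averaging at least 50 normalized counts it was 5 of 6, against 63.8%. *UHRF1*, which brings the maintenance DNA methyltransferase to replicating DNA, rose from 572 ± 32.8 to 1247 ± 88.8 normalized counts (log2 fold change 1.11, SE 0.0662, edgeR adjusted p = 2.57e-11). The methyltransferase gene *DNMT1* (log2 fold change 0.75), the corepressor gene *TRIM28* (0.56), the insulator protein gene *CTCF* (0.56) and the zinc finger gene *ZNF445* (0.51) were the other 4 that rose. *SMCHD1* did not pass (-0.0079, adjusted p = 0.921). The list's member that fell, *PLAG1*, a zinc finger factor that can activate *IGF2* promoters, had 40, 19 and 27 counts in GFP and 1, 2 and 2 in RBFOX1 libraries. Its count ratio per effective library was 12.7-fold lower (exact 95% interval 5.23 to 40.1, counting error only), and it was named after its values had been seen, since its level lay below the minimum of 50.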

How the data were processed

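The deposited counts were made by the authors, who mapped paired-end reads with HISAT2 on the GRCh38 genome and assigned read pairs to Ensembl v87 genes by strand with HTSeq-count, keeping only pairs wholly inside a single gene (intersection-strict); the versions of HISAT2 and HTSeq are not given in the sources used here. A deposited table of the authors' own DESeq2 comparison was not used. The main test was the two-sided quasi-likelihood test of edgeR 4.0.16 in R 4.3.3, after TMM scaling and with no covariate, for genes with at least 10 counts in all, and adjusted by the Benjamini-Hochberg method; the script was tested on simulated data. Library depth was 7433414 to 23249221 counts, and 95% intervals of ratios and limits from 0 counts cover counting error only. DESeq2 1.42.0, limma-voom (limma 3.58.1), other scalings and filters, a replicate block, other pseudocounts and leaving out each library were alternatives.

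Symbols, coordinates and transcripts came from GENCODE 44, a later annotation than that of the counts, which matched 98.1% of 58051 identifiers. Members and lists were chosen with earlier results of these data known. Named were the members, the RBFOX genes, genes overlapping the members' exons, listed genes of their domains, and listed genes past an adjusted p of 0.05 whose log2 fold change was 1 or more in size and whose normalized counts averaged 50 or more. Other genes were chosen after their values had been seen. The labels do not say that libraries came from separate cultures, although the study's methods call them biological replicates; if they did not, p-values measure technical spread alone. A gene of a marker list is not reported here.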

Additional observations from a re-analysis of the deposited data

How the results depend on the processing

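The number of members called was 1 in all alternatives but DESeq2, which called 0 of 5 (1 at an unadjusted p under 0.05), and the omission of RBFOX1 replicate 1; leaving out each library in turn gave 1 to 2. The PEG10 to SGCE log2 ratio differed by -0.17 to 0.020 when each library was left out, with the positive value without RBFOX1 replicate 2. Leaving out each library, the log2 fold change of KCNQ1 ran from -0.18 to 0.037 (positive without RBFOX1 replicate 1) and that of CALCR from -0.34 to 0.064 (positive without GFP replicate 3), neither called in any of them. The causes were not tested. IGF2 stayed lower throughout, and GRB10, SGCE and PEG10 were not called in any alternative. Over all genes 9581 were called by edgeR, 7669 by DESeq2, and 8326 to 9307 with a library left out; other imprinted genes called were 18 to 23 with a library left out. With the replicate block, 9046 genes, 1 member and 22 other imprinted genes were called. Deviations from the group mean gave r of -0.170, 0.034 and -0.055 for same-numbered libraries over 12012 genes. Differently numbered libraries gave -0.153 to 0.176. With 3 libraries per condition, these values cannot settle whether a number marks a shared batch or culture. Counts of library pairs within a group were also compared by chi-square per degree of freedom, near 1 where they differ by counting error alone. It was 1.66 for GFP 2 with GFP 3, but 8.90 and 9.07 for GFP 1 with GFP 2 and GFP 3. Among RBFOX1 pairs it was 1.98 to 3.01. This value also grows with depth, GFP 1 was the deepest library, and why it stood apart was not tested. No scaling moved the median of all genes by more than 0.1 on the log2 scale. For members near 10 to 30 normalized counts (IGF2 and PLAGL1), counting depth limits what could be called.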

Other observations

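PEG13, a noncoding imprinted gene chosen after its values had been seen, had 1, 2 and 2 counts in GFP and 11, 17 and 20 in RBFOX1 libraries, a count ratio per effective library of 13.01 (exact 95% interval 5.21 to 41.9, counting error only). Around the members not described above, genes within 1 Mb with a mean of at least 10 normalized counts passed as 14 of 25 for H19, 16 of 41 for PEG3 (13 higher and 3 lower), 6 of 10 for MEG3, 5 of 9 for DLK1, 5 of 10 for PLAGL1, 3 of 6 for NDN and 1 of 2 for GRB10, against 57.9% of all genes at that level. The windows of H19 and IGF2 share genes, as do those of MEG3 and DLK1.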
